A study of Mus musculus with 14 samples.

Results

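The comparison described here was between dorsal horn microglia of TASTPM mice and of wild-type (WT) mice that had received control serum, the setting without arthritis. RNA-seq had been made from 14 samples, of which 6 belonged to this comparison: 3 TASTPM Control ST libraries and 3 WT Control ST libraries, where ST stands for serum transfer. A gene was compared where 3 or more of these 6 libraries each held 10 or more of its reads, which left 12716 of the 14329 genes in the deposited values. Of these, 63 passed through the TASTPM libraries alone and 13 through the WT libraries alone, so these 76 genes had to differ, and counts over genes that passed are not counts over all genes.

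TASTPM mice were heterozygous for 2 human transgenes, one of them APP with the Swedish mutation, each under the murine Thy-1 promoter, which is active in neurons rather than in microglia. WT mice carried neither transgene and came from backcrossing heterozygous TASTPM animals to C57BL/6. All mice of both groups were 6 months old and had been injected with pooled serum from KRN/C57 mice, the control for arthritogenic K/BxN serum, and tissue was taken on day 5. From the dorsal lumbar spinal cord, 2000 CD45low CD11b+ CX3CR1+ cells were sorted per sample, and cDNA was amplified before sequencing. By the study's methods, replicates were individual mice, the RNA-seq groups held 3 to 4 mice, and males and females were used in equal number for transcriptomics; the labels used here do not say which sex a library came from. Libraries are numbered 1 to 3 within a group by their place among the deposited values, and the numbers pair nothing.

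Microglia are the resident macrophages of the central nervous system. In undisturbed tissue they carry a homeostatic set of transcripts (P2ry12, Tmem119, Cx3cr1 and others), and around amyloid deposits they switch to a disease-associated set (Trem2, Apoe, Cst7, Itgax, Clec7a). They also respond to circulating signals: corticosterone enters the nucleus with the glucocorticoid receptor and drives a small set of direct targets such as Fkbp5 and Tsc22d3, while misfolded protein releases heat shock factor 1, which drives chaperone genes.

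Values below are normalized counts, the reads on a gene divided by 1 scaling factor per library, and 1 read was worth between 0.838 and 1.11 normalized counts in these 6 libraries. The TASTPM libraries held 16692954, 15065008 and 18097010 reads on genes and the WT libraries 19357079, 20239175 and 18091110. Differences are given as log2 fold changes, TASTPM minus WT, of log2(normalized count + 1), with standard errors (SE) from limma, and they understate the change of weakly expressed genes.

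The sort was checked first. Summed over 29 homeostatic genes, the TASTPM libraries held 2187789 to 2671254 normalized counts and the WT libraries 2549262 to 2845324, while monocyte markers summed to between 192 and 441 in all 6. None of the 10 T and NK cell markers and none of the 7 fibroblast and pericyte markers is among the genes analysed here. Neutrophil markers summed to 37.6, 105 and 207 in the TASTPM libraries and 184, 7.54 and 2807 in the WT libraries, so WT library 3 stood above the other 5. The same library stood apart in red cell markers, which summed to 629.9, 1205 and 508 in the TASTPM libraries and 1513, 4523 and 41819 in the WT libraries; the TASTPM libraries were all below the WT libraries in this sum. The human APP transgene could not be read from these values: mouse App was at 3577, 3335 and 3763 in TASTPM and 4584, 3201 and 3721 in WT, and the groups overlapped. Thy1, whose promoter drives both transgenes, was below the filter, with at most 14.5 normalized counts in any of the 6.

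The 6 libraries also differed in transcripts of the sex chromosomes. Xist, the RNA that silences 1 X chromosome in female cells, was at 4321, 5048 and 202 in TASTPM and 2.81, 45.3 and 1706 in WT. The 4 Y-linked genes Ddx3y, Uty, Eif2s3y and Kdm5d summed to 2.09, 3.33 and 2577 in the TASTPM libraries and 2737, 2693 and 852 in the WT libraries. TASTPM libraries 1 and 2 thus had high Xist and almost no Y-linked reads, TASTPM library 3 and WT libraries 1 and 2 had the reverse, and WT library 3 had both. Sex and genotype were therefore partly tied together in these 6 libraries. For several of the genes below, the log2 fold change with a sex-linked score as a covariate is given, and for some also the ratio of TASTPM library 3 to the mean of WT libraries 1 and 2, the 3 libraries of the same pattern.

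Across all genes, no difference between TASTPM and WT passed the threshold in limma, which asked for a log2 fold change beyond 1 in either direction and an adjusted p below 0.05. There 0 of 12716 genes were called, the smallest adjusted p was 0.178 for Fkbp5, and 615 genes (4.84%) had an unadjusted p below 0.05, of which 334 (2.63%) were higher and 281 (2.21%) lower in TASTPM. Pearson correlations between libraries, taken across these genes, which are not independent of each other, were 0.771 to 0.854 within a genotype and 0.784 to 0.855 between genotypes, and the ranges overlapped. The quasi-likelihood test of edgeR on the recovered reads also made 0 calls, and its unadjusted p was below 0.05 for 442 genes, 403 of them shared with the 615. DESeq2 on the same reads called 34 genes, 26 higher and 8 lower. In every TASTPM library above every WT library were 4.92% of the genes, and below every WT library 4.73%. DESeq2 fitted to all 14 libraries called 28 genes, and limma without its trend 26.

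**Figure D1:**
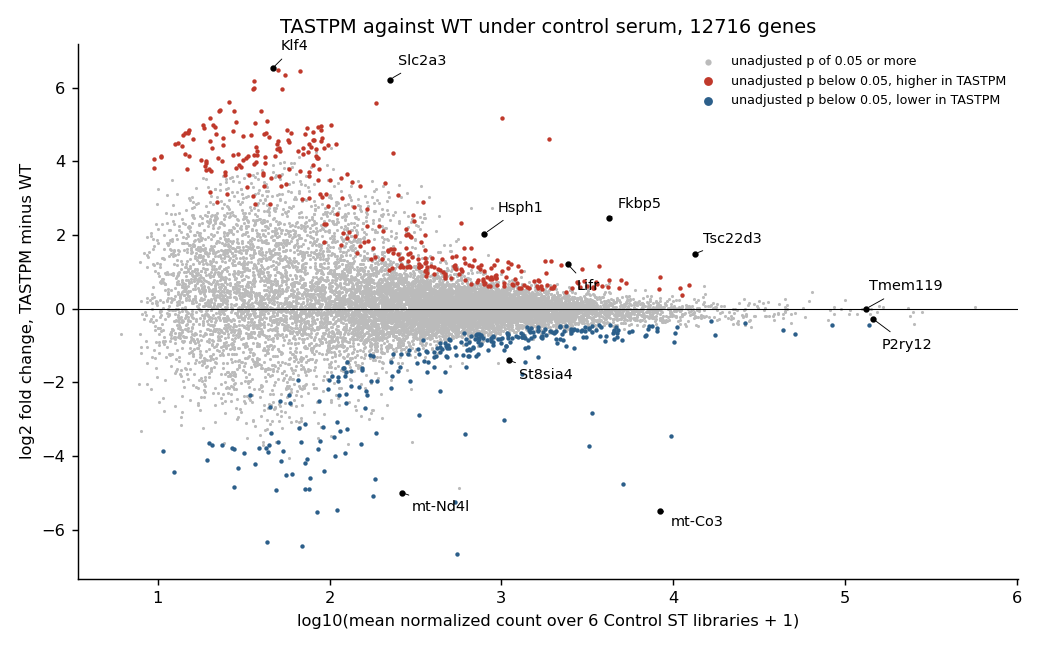
Log2 fold change (TASTPM minus WT, vertical axis) against the log10 mean normalized count over the 6 Control ST libraries (horizontal axis) for 12716 genes, each point 1 gene, coloured by direction where the unadjusted limma p was below 0.05. Fkbp5 and mt-Co3 stand away from other genes of similar level, while P2ry12 and Tmem119 lie near 0.

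The spread around 0 depended strongly on the level of expression. With the genes divided by level into 5 equal groups, in the lowest (mean of 5.13 to 60.8 normalized counts) the median absolute log2 fold change was 1.02 and the median itself 0.40, whereas in the highest (mean of 1118 and above) they were 0.19 and -0.05. The median over all genes was 0.04. Large fold changes of weakly expressed genes were thus common in this comparison, and the shares with an unadjusted p below 0.05 were similar at both ends, 5.07% and 6.29%.

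The smallest p value belonged to a gene that glucocorticoids induce, and so did several other differences. Of 10 such genes 9 passed the filter, 8 of them had a positive log2 fold change (53% of all genes), the median was 1.39, 3 had an unadjusted p below 0.05 (Fkbp5, Tsc22d3 and Zbtb16, beside 2.63% of all genes in that direction), and 3 did not overlap between the groups (Fkbp5, Tsc22d3 and Per1, beside 4.92%). Fkbp5, a co-chaperone that lowers the hormone affinity of the glucocorticoid receptor (chr17:28618058-28737521 in GRCm39), was at 6738, 6540.4 and 8013 in TASTPM and 2151, 1013 and 954 in WT. All 3 TASTPM libraries stood above all 3 WT libraries, with a mean of 7097 ± 799 (SD) against 1373 ± 675, a ratio of 5.17. The log2 fold change was 2.47 ± 0.30 (SE, adjusted p = 0.178 in limma), and it ranged from 2.26 to 2.84 when any 1 library was left out. DESeq2 on the same 6 libraries called Fkbp5 and Tsc22d3, and limma without WT library 1 called Fkbp5, with a log2 fold change of 2.84 and an adjusted p of 0.00308 in limma. Without any 1 of the other 5 libraries its adjusted p in limma was between 0.442 and 0.993. With the sex-linked score as a covariate it was 2.93, and TASTPM library 3 held 5.06 times the mean of WT libraries 1 and 2.

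Tsc22d3, which encodes the anti-inflammatory glucocorticoid-induced leucine zipper protein, was at 16799, 20706 and 20779 in TASTPM and 8999, 8417 and 4332 in WT. The groups did not overlap, and the log2 fold change was 1.49 ± 0.27 (adjusted p = 0.731 in limma), 1.91 with the sex-linked covariate. TASTPM library 3 held 2.39 times the mean of WT libraries 1 and 2. Zbtb16, a zinc finger repressor that glucocorticoids induce in many tissues, was at 59.5, 251 and 134 in TASTPM and 87.2, 0 and 0 in WT, so that its log2 fold change of 4.84 ± 1.77 rested on 2 WT libraries at 0, and its groups overlapped. Per1, a clock gene with a direct glucocorticoid response, was at 135, 255 and 332 in TASTPM and 127, 111 and 43.9 in WT (1.39 ± 0.66), all TASTPM libraries above all WT libraries. Klf9, a transcription factor of the same response, was at 37.6, 93.3 and 642 in TASTPM and 0.937, 36 and 67.8 in WT (2.96 ± 1.52). TASTPM library 3 was far above and WT library 1 far below the other libraries, and the groups overlapped.

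Other genes of the same response had smaller differences. Sgk1, a kinase that regulates ion transport, was at 19579, 12446 and 13532 in TASTPM and 14925, 10935 and 12488 in WT (0.23 ± 0.21). The metal-binding protein gene Mt1 differed by 0.25 ± 0.32 and Errfi1, an inhibitor of EGF receptor signalling, by 0.47 ± 0.34, and the groups overlapped in each of these. The glucocorticoid receptor itself, Nr3c1, was at 3349, 4441 and 4203 in TASTPM and 3682, 5224 and 3849.9 in WT (-0.08 ± 0.21), and its groups overlapped. Log2 fold changes of the list ranged from -0.08 to 4.84, and the list median was 1.39 with 6 libraries, 0.91 without WT library 3 and 1.91 with the sex-linked covariate.

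**Figure D2:**
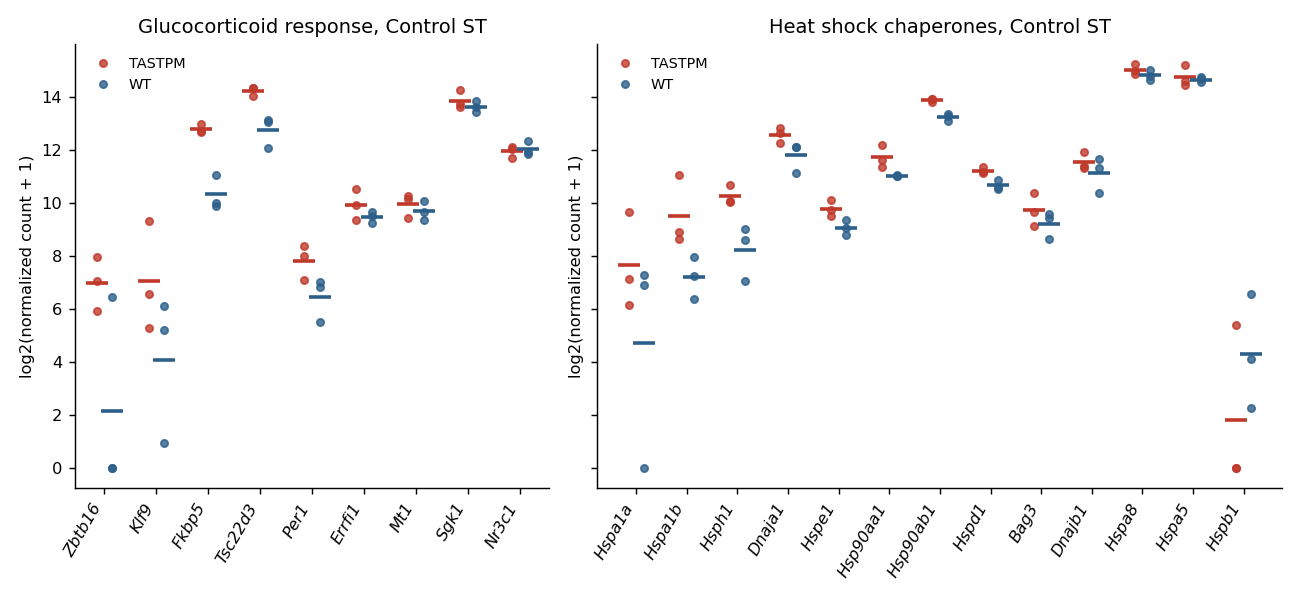
Log2(normalized count + 1) in each Control ST library for the 9 glucocorticoid response genes tested (left) and the 13 heat shock chaperone genes (right), with TASTPM in red and WT in blue; points are libraries and horizontal bars are means of 3. TASTPM points lie above all WT points for Fkbp5, Tsc22d3, Hsph1 and Hsp90ab1, and the groups overlap for Sgk1, Nr3c1, Hspa8 and Hspa5.

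Of the 10 genes, 8 had a promoter among the RefSeq sequences (GRCm38.p6, 250 bases before the start), and Zbtb16 and Nr3c1 had none there. The glucocorticoid response element was searched as AGAACA, any 3 bases and TGTTCT, a palindrome that reads the same on both strands. It was found in 3 of 32851 promoters (0.00913%), and Sgk1 was the only one of the 8 to hold it. The stretch is shown because it carries this element (capitals), 175 to 189 bases before the Sgk1 start, on the plus strand at chr10:21993694-21993722.
Sgk1: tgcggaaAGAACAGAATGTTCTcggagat
Fkbp5 and Tsc22d3, with the larger differences, had no such letters in the windows searched, which says nothing of elements farther away.

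Heat shock chaperones stood higher in TASTPM as well. All 13 listed genes were tested, 12 had a positive log2 fold change (53% of all genes), the median was 0.63, and 7 had an unadjusted p below 0.05, all higher in TASTPM (2.63% of all genes); 7 did not overlap between the groups (4.92% of all genes). None passed the adjusted threshold in limma, while DESeq2 on the same 6 libraries called Hspa1b and Hsph1, and with 14 libraries Hsph1 alone of the list. Hsp90ab1, the constitutive cytosolic HSP90, was the most evenly separated of them: it was at 14280.4, 15473 and 15405 in TASTPM and 8812, 10003 and 10416 in WT. The TASTPM libraries were all above the WT libraries, and the log2 fold change of 0.63 ± 0.15 (adjusted p = 0.969 in limma) ranged from 0.56 to 0.68 when any 1 library was left out. TASTPM library 3 held 1.64 times the mean of WT libraries 1 and 2. Its stress-inducible partner Hsp90aa1 was at 2653, 4599.7 and 3171 in TASTPM and 2133, 2058 and 2057 in WT, also without overlap, with a log2 fold change of 0.70 ± 0.23.

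Hsph1, which encodes HSP110, the nucleotide exchange factor of HSP70, was at 1053, 1064 and 1621 in TASTPM and 133, 511 and 388 in WT. The log2 fold change was 2.03 ± 0.49 (1.96 with the sex-linked covariate), and the groups did not overlap. Hspa1b, an inducible HSP70, was at 476, 394 and 2119.8 in TASTPM and 152, 247 and 81.2 in WT (2.33 ± 0.68, 3.85 with the sex-linked covariate), with TASTPM library 3 far above the other 2. Its neighbour Hspa1a, nearly identical in sequence so that reads cannot be divided with certainty between them, was at 139.97, 69.9 and 799.6 in TASTPM and 157, 117 and 0 in WT and overlapped.

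The mitochondrial chaperonin is made of 2 proteins, and both of its genes were higher in TASTPM. Hspd1 (HSP60) was at 2280.3, 2238 and 2629 in TASTPM and 1482, 1844 and 1569 in WT (0.55 ± 0.20). Its partner Hspe1 (HSP10) was at 842, 1105 and 733 in TASTPM and 649.5, 533 and 438 in WT (0.72 ± 0.30). Neither overlapped between the genotypes. The DNAJ co-chaperone gene Dnaja1 was at 6417, 4948 and 7231 in TASTPM and 4450.1, 4469 and 2269 in WT (0.78 ± 0.28). The constitutive chaperones Hspa8 and Hspa5, the most abundant of the list, differed by 0.20 ± 0.18 and 0.10 ± 0.21 and overlapped, and Dnajb1 (0.43 ± 0.33), Bag3 (0.51 ± 0.40) and the weakly expressed Hspb1 (-2.52 ± 1.96) overlapped as well.

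Hspd1 and Hspe1 are transcribed away from each other from a shared promoter. Of the 13 chaperone genes 10 had a RefSeq promoter in GRCm38.p6 (Hspa8, Hsp90aa1 and Hsp90ab1 had none there), and the heat shock element was searched on both strands in the 250 bases before the start as GAA, TTC and GAA with any 2 bases between them. It occurred in 153 of 32851 promoters (0.466%) and in 2 of these 10, Hspe1 and Hspd1. Both matches are the same 30 bases at chr1:55088053-55088082, read from opposite strands, and they are shown because 1 element (capitals, 2 overlapping matches) lies 72 to 89 bases before the Hspe1 start and 127 to 144 bases before the Hspd1 start.
Hspe1, plus strand: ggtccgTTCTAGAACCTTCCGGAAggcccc
Hspd1, minus strand: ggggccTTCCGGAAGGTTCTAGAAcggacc
The other 8 promoters, Hsph1 and Hspa1b among them, held no such letters in the window searched.

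By the smallest unadjusted p, the genes higher in TASTPM were led by Fkbp5, Lifr, Tsc22d3, Klf4, Ppp1r21, Mlxip, Hif3a, Mras, Ms4a4a and Itih3, with adjusted p between 0.178 and 0.731 in limma. DESeq2 called all 10 with the 6 libraries and, with 14, all but Lifr, Ppp1r21, Mras and Ms4a4a. The genes had been picked by p on the same reads, so these calls are not separate support. Of the 10, 4 passed the filter through the TASTPM libraries alone and had to be higher there. Lifr, the receptor subunit for leukemia inhibitory factor (chr15:7120095-7226970), was at 3141, 3396 and 3643 in TASTPM and 1456, 1609 and 1374 in WT. The 3 values of each group lay close together, and the log2 fold change was 1.20 ± 0.19 (1.14 to 1.26 when any 1 library was left out, 1.32 with the sex-linked covariate). TASTPM library 3 held 2.38 times the mean of WT libraries 1 and 2. Mlxip, a glucose-sensing transcription factor, was at 2747, 2029.5 and 2849 in TASTPM and 1365, 958 and 808 in WT (1.30 ± 0.26). Mras, a small GTPase of the RAS family, was at 833, 979 and 903 in TASTPM and 257, 237 and 403 in WT (1.63 ± 0.33). Ppp1r21, which has a part in endosome sorting, was at 2000.4, 3518 and 2802 in TASTPM and 1217, 1180.3 and 946 in WT (1.29 ± 0.26). None of these 4 overlapped between the groups.

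Another 4 of these 10 were close to absent in WT. Klf4, a zinc finger transcription factor, was at 83.6, 101 and 89 in TASTPM and 0, 0 and 0 in WT, which is at least 33.4-fold higher when the WT libraries are set at a floor of 3 reads each. Itih3, an extracellular matrix protein gene, was at 65.8, 60 and 171 in TASTPM and 0, 0 and 0 in WT, at least 36.2-fold higher by the same floor, a bound that was 23 without TASTPM library 3. The groups did not overlap in either. Hif3a, a member of the hypoxia-inducible factor family, was at 57.5, 115 and 153 in TASTPM and 0.937, 0 and 0 in WT. Ms4a4a, a membrane protein gene of macrophages, was at 49.1, 107 and 242 in TASTPM and 0.937, 0 and 0 in WT. These 4 genes passed the filter through the TASTPM libraries alone, so they had to be higher there. By size of change, Slc2a3, the neuronal-type glucose transporter GLUT3, was at 395, 366 and 487 in TASTPM and 0.937, 88 and 0 in WT. The phosphoinositide 3-kinase inhibitor gene Pik3ip1 was at 297, 305 and 5225 in TASTPM and 35.6, 139.99 and 0.955 in WT. These groups did not overlap. Zfp976 was at 173, 85.5 and 136 in TASTPM and 2.81, 0 and 26.7 in WT. The antisense gene Plet1os was at 40.7, 86.6 and 184 in TASTPM and 1.87, 0 and 0 in WT. Pik3ip1 was highest in TASTPM library 3, with libraries 1 and 2 also above every WT library. Plet1os passed the filter through the TASTPM libraries alone, and it cannot be told from its partner without knowledge of the strand.

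Among the genes lower in TASTPM by the same rule were mt-Co3, St8sia4, mt-Co2, mt-Nd4l, Zfp239, Evi2a, Ncdn, Snx22 and Hdac5. DESeq2 with the 6 libraries called all of these but Evi2a and Hdac5, and with 14 libraries it called mt-Co3, mt-Nd4l, Zfp239 and Ncdn. These genes too had been picked by p on the same reads, so the calls are not separate support. St8sia4, which builds polysialic acid on neural cell surface proteins and on neuropilin-2 of microglia, was at 635, 718 and 472 in TASTPM and 1940.1, 1549 and 1322 in WT (-1.40 ± 0.28, adjusted p = 0.731 in limma). Every TASTPM library was below every WT library. Evi2a, a membrane protein gene within an intron of Nf1, was at 4268, 3371 and 3097 in TASTPM and 6358, 5983 and 6883 in WT (-0.85 ± 0.19). Hdac5, a class IIa histone deacetylase, was at 380.2, 395 and 418 in TASTPM and 879, 925 and 792 in WT (-1.12 ± 0.28). These were also below WT in every TASTPM library. Ncdn was at 365, 214 and 373 in TASTPM and 1111, 825 and 842 in WT (-1.57 ± 0.35). Zfp239 was at 0, 0 and 0 in TASTPM and 126, 67.1 and 61.1 in WT, at least 27.6-fold lower in TASTPM against a floor of 3 reads per library. Snx22 was at 0, 0 and 0 in TASTPM and 317, 53.6 and 37.2 in WT, at least 44.4-fold lower, a bound that was 14.8 without WT library 1. Both passed the filter through WT alone. The amino acid transporter Slc1a5 (0, 56.6 and 0 in TASTPM and 299, 69.6 and 237 in WT) and Megf11 (0, 25.5 and 2.73 in TASTPM and 173, 153 and 96.5 in WT) were among the lower genes of largest change, both at low levels.

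Mitochondrial transcripts gave large differences in a block of neighbouring genes, whose sequence is shared with a nuclear copy. Of the 13 protein-coding genes of the mitochondrial genome, 6 had an unadjusted p below 0.05 and were lower in TASTPM (2.21% of all genes), and all 6 are neighbours, mt-Co2, mt-Atp8, mt-Atp6, mt-Co3, mt-Nd3 and mt-Nd4l. They encode subunits of cytochrome c oxidase, ATP synthase and complex I. mt-Co3 (chrM:8607-9390) was at 477, 312 and 85.4 in TASTPM and 2731, 34251 and 12542 in WT. mt-Co2 was at 632, 236 and 74.5 in TASTPM and 1454, 20694 and 7406 in WT. mt-Nd4l was at 11.5, 14.4 and 5.45 in TASTPM and 94.7, 1048 and 400.2 in WT. In these 3 genes the TASTPM libraries were all below the WT libraries, but the WT libraries themselves lay far apart, and the log2 fold change of mt-Co3 was -5.49 ± 0.86 (adjusted p = 0.503 in limma). Without WT library 1 it was -6.46 with an adjusted p of 0.0181 in limma, the only other call made when a library was left out, and without any 1 of the other 5 libraries its adjusted p in limma was between 0.678 and 0.993. Of the other 3 genes of the block, mt-Atp8 did not overlap either (85.7, 14.4 and 363 in TASTPM and 369, 2164 and 703 in WT). mt-Atp6 (749, 212 and 7994 in TASTPM and 4647, 33936 and 10929.9 in WT) and mt-Nd3 (59.5, 328 and 88.1 in TASTPM and 289.6, 1412 and 439 in WT) overlapped.

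The other 7 protein-coding genes, on either side of the block, lay closer to 0, among them mt-Co1 and mt-Nd4, which the copy holds in part (31.3% and 63.6% of their length). mt-Nd1 was at 17326, 31504 and 13955 in TASTPM and 26318, 21804 and 15785 in WT. mt-Cytb was at 24149, 45146 and 17384 in TASTPM and 31568, 35599.8 and 26213 in WT. mt-Co1 was at 19067, 35842 and 16864 in TASTPM and 30549, 44081 and 24023 in WT. The log2 fold changes of the 7 ranged from -0.50 to 0.21. Summed over the 6 genes the TASTPM libraries held 2015, 1117 and 8609.9 and the WT libraries 9585, 93505 and 32420.1. Summed over the other 7 they held 79713, 154265 and 63564 against 113512, 135402 and 87239.6, and the groups overlapped. The groups of the block did not overlap in the first of these sums. The 82 nuclear genes of the respiratory chain and ATP synthase that were tested had a median log2 fold change of 0.00. Of these 82, 0 had an unadjusted p below 0.05 in limma (4.84% of all genes), and 2 lay above and 1 below every WT library (4.92% and 4.73% of all genes).

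**Figure D3:**
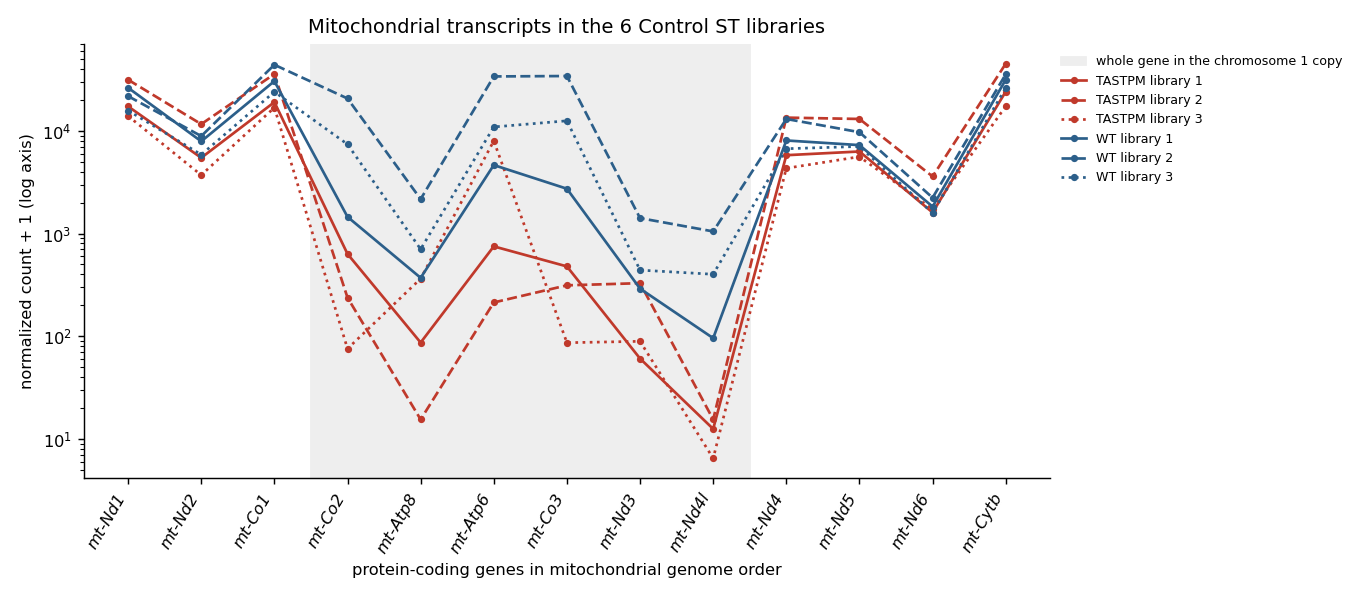
Normalized count + 1 (log axis) of the 13 protein-coding mitochondrial genes, in genome order, with 1 line per Control ST library (TASTPM red, WT blue); the grey band marks the 6 genes that lie whole in the chromosome 1 copy. The lines run together outside the band and fan out inside it, where mt-Co3 ranges from 85.4 to 34251.

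The 6 genes are those that a nuclear copy of mitochondrial DNA spans whole. In GRCm39 the stretch chrM:6390-11042 matched chr1:24650616-24655269 (minus strand) over 4654 aligned bases with 99.936% identity, 2 substitutions and 1 gap base, and the next longest match, on chromosome 2, had 97.362% identity. Between the substitutions a stretch of 3067 bases of the mitochondrial genome, which holds mt-Co2, mt-Atp8, mt-Atp6 and mt-Co3 whole, had no difference from the copy. The second substitution, T9461C (mitochondrial base first, position counted from 1 at the start of the mitochondrial genome, base of the copy last), lies at the start of mt-Nd3 and is shown in capitals with 20 bases on either side, because it is the single base in mt-Nd3 by which a read can be placed.
Mitochondrial genome: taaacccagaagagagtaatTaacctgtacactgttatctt
Chromosome 1 copy, minus strand: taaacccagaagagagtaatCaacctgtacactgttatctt
Pseudogenes annotated on the copy took 1492, 5410.2 and 384 normalized counts in the TASTPM libraries and 696, 484 and 492 in the WT libraries, with TASTPM libraries 1 and 2 above the rest. Added to the 6 mitochondrial genes, the sums were 3507, 6527 and 8994 in TASTPM and 10282, 93989 and 32912 in WT, still without overlap. How reads matching both places were counted is not given in the sources used here, and the part of read placement in these 6 differences was not tested.

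Homeostatic microglial genes stood slightly lower in TASTPM. Of the 29 genes, all tested, 23 had a negative log2 fold change (47% of all genes), the median was -0.20, 4 had an unadjusted p below 0.05, all lower (2.21% of all genes), and 4 lay below every WT library (4.73% of all genes). The median was -0.08 without TASTPM library 3. Among these, the ADP receptor gene P2ry13 was at 49718, 31503 and 36736 in TASTPM and 52403, 58929.7 and 77227 in WT (-0.68 ± 0.22). The secreted glycoprotein gene Olfml3 was at 78399, 76547 and 59079.6 in TASTPM and 104132, 90828 and 95181 in WT (-0.45 ± 0.17). Neither overlapped. The fractalkine receptor gene Cx3cr1 was at 130709, 97396 and 119853 in TASTPM and 129339, 167309 and 181794 in WT (-0.46 ± 0.20). Cx3cr1 overlapped, since TASTPM library 1 exceeded WT library 1. In bulk samples fewer cells with a transcript and less of it per cell cannot be told apart. Cx3cr1 and the other gate genes, Ptprc (CD45, -0.32 ± 0.17) and Itgam (CD11b, -0.44 ± 0.23), were used to sort these cells. Ptprc and Itgam were lower in every TASTPM library than in every WT library, 2 of the 3 gate genes beside 4.73% of all genes. Summed over the 3, the TASTPM libraries held 110086 to 144068 and the WT libraries 147568 to 197076, without overlap. P2ry12, the ADP receptor of process motility, was at 165494, 124761 and 106484 in TASTPM and 149159, 166138 and 160388 in WT (-0.28 ± 0.20). Tmem119 was at 147011, 126035 and 120565 in TASTPM and 140835, 122314 and 132225 in WT (-0.01 ± 0.17), and both overlapped between the genotypes. Among transcription factors of microglia, Irf8 was at 10027, 7349 and 8892 in TASTPM and 10935, 11660.4 and 14186 in WT (-0.49 ± 0.18), lower in every TASTPM library. Cebpb was at 1269, 3213 and 2758 in TASTPM and 1539.9, 1252 and 796 in WT (0.96 ± 0.38).

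In the disease-associated set positive and negative differences were equally many. Of 34 genes 32 were tested, 16 were positive and 16 negative, the median was -0.01, and 1 had an unadjusted p below 0.05 (4.84% of all genes). That gene was Itgax, which encodes CD11c, at 267, 289.8 and 211 in TASTPM and 49.7, 91.4 and 188 in WT (1.41 ± 0.62, 0.62 with the sex-linked covariate), a low level in every library. Trem2, the lipid receptor that starts the switch to this state, was at 23986, 31095 and 19971 in TASTPM and 34698, 20478 and 28759 in WT (-0.15 ± 0.24). Apoe was at 10722, 10713 and 24724 in TASTPM and 35416, 4745 and 4624 in WT (0.62 ± 0.70), with WT library 1 above all TASTPM libraries and the other 2 WT libraries below them. Its log2 fold change was 2.04 with the sex-linked covariate and 0.13 to 1.60 when any 1 library was left out. Cst7, a cathepsin inhibitor gene, was at 352, 548 and 246 in TASTPM and 869.8, 569 and 492 in WT (-0.78 ± 0.40), the opposite direction to Itgax. Clec7a (-0.50 ± 0.35) and the galectin-3 gene Lgals3 (-0.31 ± 0.74) also overlapped, and so did the phagocytosis genes Cd68 (0.14 ± 0.19) and Mertk (-0.05 ± 0.21). Clec7a was -1.19 with the sex-linked covariate and -0.89 to -0.10 when any 1 library was left out. For Cd68 the values were 29512, 23955 and 22089 in TASTPM and 26103, 18550.1 and 24163 in WT. The microglial risk genes of Alzheimer's disease had a median of -0.11 over 23 genes. Among them Picalm, an endocytic adaptor, was higher at 3912, 5308 and 3979 in TASTPM and 2826, 2574 and 2890.1 in WT (0.66 ± 0.19). Scimp was lower at 0, 1.11 and 69.1 in TASTPM and 146, 129 and 111 in WT (-4.61 ± 1.57, -6.47 to -3.41 when any 1 library was left out and -1.62 with the sex-linked covariate). Of 17 genes of amyloid precursor processing 1 had an unadjusted p below 0.05 and was lower (2.21% of all genes), the gamma-secretase subunit gene Aph1b (-3.48 ± 1.51). For Aph1b the log2 fold change ranged from -4.61 to -1.56 when any 1 library was left out and was -6.31 with the sex-linked covariate.

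**Figure D4:**
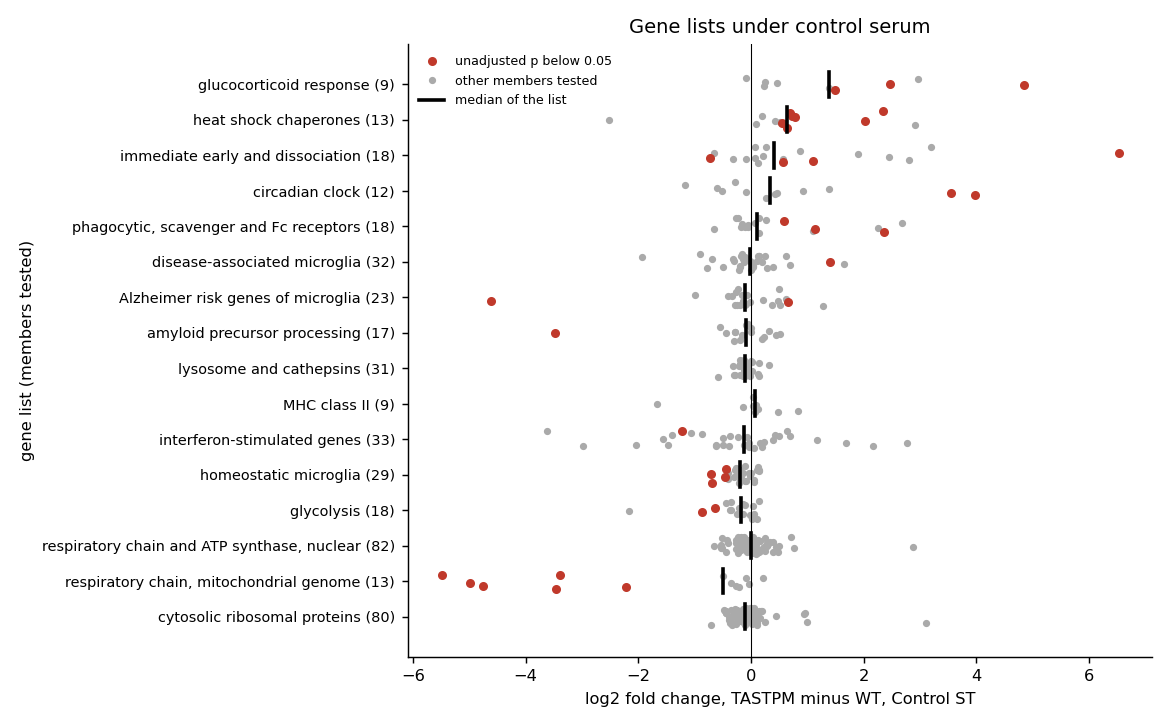
Log2 fold change (TASTPM minus WT, Control ST, horizontal axis) of every tested member of 16 gene lists, each point 1 gene, in red where the unadjusted limma p was below 0.05; black bars are list medians and the number tested stands beside each name. Medians of the glucocorticoid response (1.39) and the heat shock chaperones (0.63) lie to the right of those of the microglial and metabolic lists shown.

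Receptors for uptake included 3 of 18 tested genes with an unadjusted p below 0.05, all higher in TASTPM (2.63% of all genes), with a list median of 0.10. Fcgr4, an activating Fc receptor gene, was at 797, 1141 and 1044 in TASTPM and 281, 502 and 628 in WT (1.14 ± 0.36). The scavenger receptor gene Stab1 was at 4387, 4428 and 6137 in TASTPM and 3259, 3562 and 3081 in WT (0.58 ± 0.20). Neither overlapped. Cd300lf, a lipid-binding inhibitory receptor gene, was at 131, 109 and 1437 in TASTPM and 60, 85.5 and 27.7 in WT (2.37 ± 1.00), with TASTPM library 3 far above the other libraries. Lysosome and cathepsin genes had 0 of 31 at an unadjusted p below 0.05 in limma, beside 4.84% of all genes. Their median was -0.11, with 24 negative (47% of all genes). Complement genes had a median of -0.09 over 13 tested and the TLR4 pathway 0.00 over 16. Tlr4 itself was at 4402, 3850.3 and 5617 in TASTPM and 5132, 8350.03 and 4104 in WT (-0.30 ± 0.27). Its log2 fold change ranged from -0.52 to -0.0074 when any 1 library was left out. The adaptor kinase gene Irak1 was lower (-0.66 ± 0.27).

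Other immune lists had medians between -0.30 and 0.13, beside 0.04 for all genes. Class II MHC genes had a median of 0.08 over 9 tested (H2-Ab1 0.08 ± 0.64), class I genes -0.15 over 14, interferon-stimulated genes -0.12 over 33. At an unadjusted p below 0.05 stood 0 of the class II genes, 1 of the class I genes (Nlrc5, -2.50 ± 1.02) and 1 interferon-stimulated gene (Oasl2, -1.22 ± 0.44), both lower, beside 2.21% of all genes in that direction. In the TNF, IL-1 and NF-kB list the median was -0.17 over 21: Nfkbia, the inhibitor of NF-kB and itself a glucocorticoid target, was at 4854, 7668 and 6769 in TASTPM and 5344, 4542 and 2472 in WT (0.69 ± 0.30), while Nfkb2 was lower (-1.03 ± 0.44). Chemokines and their receptors had a median of 0.13 over 12, with Ccl12 lower (-1.77 ± 0.69). Medians were -0.30 for 5 galectins, -0.25 for 9 purinergic genes and -0.14 for 11 genes of the TGF-beta pathway.

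Among metabolic genes, 13 of 18 glycolytic genes were negative (47% of all genes) with a median of -0.18, and 2 had an unadjusted p below 0.05, both lower (2.21% of all genes). The lactate exporter gene Slc16a3 was at 788, 475 and 592 in TASTPM and 1389, 966 and 1009 in WT (-0.87 ± 0.30). The glucose transporter gene Slc2a1 (GLUT1) was at 1707, 1169 and 1697 in TASTPM and 2994, 1965 and 2211 in WT (-0.65 ± 0.25). Both were below WT in every TASTPM library, opposite to Slc2a3. Citrate synthase, Cs, was at 1670.3, 1979.6 and 1774 in TASTPM and 2419, 2831 and 2431 in WT (-0.50 ± 0.20), and the median over 21 TCA cycle genes was -0.03. Cytosolic ribosomal protein genes had a median of -0.11 over 80, of which 55 were negative (47% of all genes). None had an unadjusted p below 0.05 in limma (0, beside 4.84% of all genes), and 3 lay above every WT library (4.92% of all genes). Cholesterol genes had a median of -0.10 over 22, where the synthesis enzyme gene Sqle was lower (-1.58 ± 0.63), and the 16 iron and antioxidant genes 0.03. Hmox1, which degrades haem, was at 1328, 1739 and 2168 in TASTPM and 692, 858 and 1007 in WT (1.02 ± 0.27), without overlap.

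In the growth lists single genes had an unadjusted p below 0.05, beside 4.84% of all genes. The microtubule regulator gene Stmn1 was at 1097, 935 and 883 in TASTPM and 252, 424 and 538 in WT (1.32 ± 0.35), the only 1 of 16 tested cell cycle genes with an unadjusted p below 0.05 (median -0.04), while Mki67 and Top2a were below the filter. The pro-apoptotic gene Bmf was at 478, 838 and 868 in TASTPM and 348, 236 and 429 in WT (1.10 ± 0.39), 1 of 15 BCL2 family genes (median 0.20). Immediate early genes and genes of dissociation had 14 of 18 positive (53% of all genes) and a median of 0.41, with 3 higher and 1 lower at an unadjusted p below 0.05, beside 2.63% and 2.21% of all genes. Of the 3 higher, Klf4 passed the filter through the TASTPM libraries alone. Besides Klf4, its relative Klf2 was at 1225, 1907 and 1379 in TASTPM and 752, 634 and 678 in WT (1.11 ± 0.26). Rhob, a small GTPase gene, was at 3171, 4269 and 4664 in TASTPM and 3402, 2727 and 2116 in WT (0.56 ± 0.24). Ier5, a regulator of heat shock factor 1, was lower at 1375, 1289 and 1466 in TASTPM and 2046, 2292 and 2488 in WT (-0.72 ± 0.20). Among the classical early genes, which all overlapped, Fos differed by 0.22 ± 2.08, Jun by 0.56 ± 0.30 and Junb by -0.31 ± 0.23. Of 12 clock genes tested 2 had an unadjusted p below 0.05, both higher in TASTPM (2.63% of all genes). Per2 was at 49.1, 45.5 and 77.2 in TASTPM and 0, 46.1 and 0 in WT (3.97 ± 1.68). Nr1d1 was at 132, 30 and 60.9 in TASTPM and 0, 2.51 and 44.9 in WT (3.54 ± 1.56, 1.79 with the sex-linked covariate). Both were weakly expressed with overlapping groups. The list median was 0.34, 0.09 without WT library 1.

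Markers of other cell types moved in part with genotype. Of 10 markers of border-associated macrophages 5 passed the filter and 3 of these had an unadjusted p below 0.05, all higher in TASTPM (2.63% of all genes). All 5 were positive (53% of all genes), with a median of 3.69, and 3 lay above every WT library (4.92% of all genes). Of the 3 with an unadjusted p below 0.05, Cd163 passed the filter through the TASTPM libraries alone and so had to be higher there. The list summed to 202, 848 and 1993 in the TASTPM libraries and 157, 122 and 216 in the WT libraries. F13a1, a transglutaminase subunit, was at 128, 218 and 969 in TASTPM and 13.1, 3.35 and 66.9 in WT (4.23 ± 1.17). Cd163, the haemoglobin scavenger receptor gene, was at 12.5, 18.9 and 253 in TASTPM and 0.937, 3.35 and 0 in WT (4.33 ± 1.63). These levels were highest in TASTPM library 3, the library that also led in Pik3ip1, Cd300lf and Hspa1b, whereas the defining markers Mrc1 and Pf4 overlapped between the groups, with at most 118 and 48.2 normalized counts in any of the 6. Their part in the differences above was not tested. Without that library the log2 fold changes of Fkbp5, Tsc22d3 and Hsp90ab1 were 2.38, 1.43 and 0.61. Dendritic cell markers summed to 227, 282 and 254 in the TASTPM libraries and 117, 306 and 91.7 in the WT libraries, with WT library 2 the highest. Of the 3 tested, 2 were positive and 1 negative, with a median of 2.47. Zbtb46, the 1 with an unadjusted p below 0.05, was at 125, 153 and 181 in TASTPM and 12.2, 0.838 and 28.7 in WT (4.09 ± 1.17), while Clec9a was at 0 in all 6 libraries. The astrocyte gene Gja1 was at 0, 38.9 and 0 in TASTPM and 127, 225 and 36.3 in WT (-4.91 ± 1.66), and the 7 astrocyte and 6 oligodendrocyte markers tested had medians of 0.45 and 0.19. Summed B cell, neuron and endothelial markers overlapped between the genotypes. Of the globin genes, Hbb-bs (137, 339.7 and 119 in TASTPM and 459, 1662 and 16768 in WT) was below WT in every TASTPM library and Hba-a1 (357, 609.5 and 239.9 in TASTPM and 598, 1999 and 16245 in WT) overlapped. WT library 3 was far above the rest in both, and near-identical globin copies can share reads.

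The same genotype difference could be read in the 8 libraries of mice given arthritogenic K/BxN serum, which share no library with this comparison. There limma called 0 of 12716 genes, and 290 (2.28%) had an unadjusted p below 0.05, 1.31% higher and 0.967% lower in TASTPM. There every TASTPM library was above every WT library for 1.19% of the genes and below for 0.645%. In both genotypes libraries 1 and 2 of that serum held high sums of monocyte markers, 80473 to 155292 against 221 to 443 in libraries 3 and 4. The comparison was therefore also made over libraries 3 and 4 alone, where limma called 0 genes and 592 had an unadjusted p below 0.05. Xist in libraries 1 to 4 was at 12.5, 0, 1.17 and 3980 in TASTPM and 9.94, 0, 5816 and 3247 in WT. The 4 Y-linked genes summed to 2272, 1872, 2145 and 46.3 in TASTPM and 2108, 2067, 37 and 1.09 in WT. Sex-linked transcripts were thus not balanced between the genotypes under this serum either, nor within libraries 3 and 4. Of the 334 genes higher under control serum 222 (66.5%) had the same sign, and of the 281 lower genes 175 (62.3%), beside 53.7% of all genes.

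Fkbp5 kept its direction under K/BxN serum, at 4349, 4345, 12172 and 10633 in TASTPM and 1469.6, 1225, 4392 and 3799.9 in WT. Among libraries 1 and 2 both TASTPM values stood above both WT values, and so they did among libraries 3 and 4. That split was chosen after seeing the data, and the share of all genes ordered in this way was not counted. As wholes the Fkbp5 groups overlapped. The log2 fold change was 1.59 ± 0.50 (adjusted p = 0.9998 in limma) and 1.48 over libraries 3 and 4. Hsp90ab1 was at 15128, 13765, 14676 and 10462 in TASTPM and 11078, 8139, 9901 and 8169 in WT (0.53 ± 0.20). Zbtb16 was at 113, 219.7, 632 and 588 in TASTPM and 69.6, 81.5, 160.1 and 108 in WT (1.63 ± 0.59). Both were higher in TASTPM on average, and the groups overlapped in each. Hsph1 was at 797, 538, 1043 and 844 in TASTPM and 686, 546, 461 and 512 in WT (0.52 ± 0.26), Tsc22d3 differed by 0.39 ± 0.24 and Lifr by 0.57 ± 0.35, beside 1.49 and 1.20 under control serum. Over the lists, 12 of 13 chaperones were positive with a median of 0.42, and 6 of 9 glucocorticoid response genes with a median of 0.39, beside 50% of all genes positive under that serum.

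**Figure D5:**
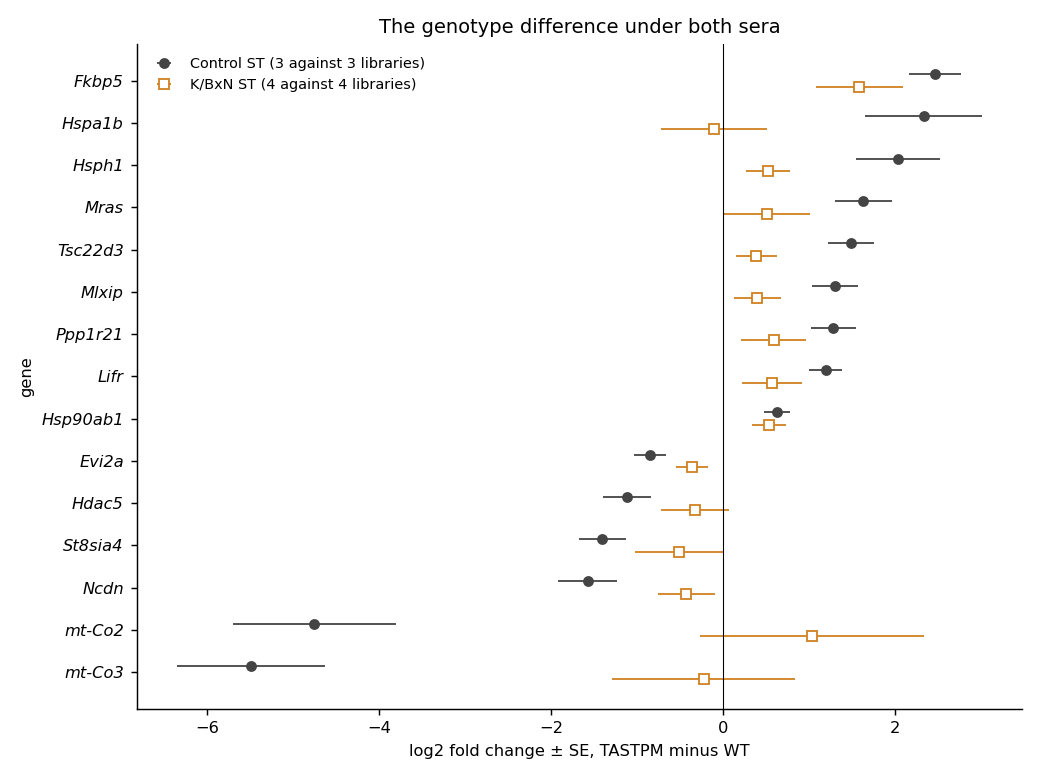
Log2 fold change with SE (TASTPM minus WT, horizontal axis) under control serum (filled circles, 3 against 3 libraries) and K/BxN serum (open squares, 4 against 4), for genes named for the smallest p or largest change or from the glucocorticoid and chaperone lists, where the SE under control serum was below 1. Fkbp5 and Hsp90ab1 are positive under both sera, while mt-Co2 changes sign.

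Some genes differed in direction between the sera. Of the mitochondrial block, 5 of the 6 genes had a positive log2 fold change under K/BxN serum (50% of all genes), where all 6 were negative under control serum. The exception was mt-Co3, negative under both, which under K/BxN serum was at 38418, 2272, 4929 and 6850.3 in TASTPM and 21614, 18591, 13428 and 1022 in WT (-0.23 ± 1.07), with wide and overlapping ranges in both genotypes. Cst7 differed by 1.22 ± 0.44 under K/BxN serum, opposite to control serum. Itgax under that serum was at 406, 236, 3.52 and 396 in TASTPM and 331, 426, 290.3 and 451 in WT (-1.69 ± 1.26), where TASTPM library 3 was far below the other 7 libraries and the groups overlapped. A test of the difference between both sera (the interaction of genotype and serum over 14 libraries) made 0 calls in limma, where 391 genes (3.07%) had an unadjusted p below 0.05 (1.6% positive and 1.48% negative) and the smallest adjusted p at 0.799. edgeR also made 0 calls in that test, and 284 genes had an unadjusted p below 0.05. For any single gene an exact permutation test of 3 libraries against 3 cannot give a two-sided p below 0.1, which is the value of each gene whose Control ST groups did not overlap.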

How the data were processed

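RNA-seq of sorted dorsal horn microglia was available for 14 mouse samples, of which the 6 Control ST libraries were compared and the 8 K/BxN ST libraries were set beside them. The values the authors deposited are a signal, namely counts normalized with DESeq2 size factors. Per the labels and the study's methods, reads were checked with FastQC 0.11.9, aligned with HISAT2 2.1 to GRCm39 and counted with featureCounts 1.5.2; the handling of reads with several matches and of strand is not given in the sources used here. All values (100%) were whole reads within 0.02 reads once divided by the value of 1 read, so reads were recovered, and 3 reads served as the floor for a gene at 0.

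Libraries were grouped by genotype and serum from their names, and the numbers of all but the 4 TASTPM K/BxN ST libraries do not join to single sample labels. A gene was kept where 3 or more of the 6 libraries each held 10 or more of its reads. The main test was limma 3.58.1 (R 4.3.3) with a mean-variance trend on log2(normalized count + 1), Benjamini-Hochberg adjusted, with calls at an adjusted p below 0.05 and an absolute log2 fold change above 1. Alternatives were edgeR 4.0.16, DESeq2 1.42.0 and voom on recovered reads, other scalings, pseudocounts and filters, a sex-linked covariate and leaving out each library. The split of the K/BxN libraries into 1 and 2 and into 3 and 4, and TASTPM library 3 against WT libraries 1 and 2, were chosen after seeing the data. The pipeline was tested on simulated counts in which 200 of 12716 genes were changed. At the thresholds used, limma recovered 1 of the 200 at a log2 change of 1, 79 at 2 and 115 at 3. Most changes near the threshold would thus be missed with 3 libraries per group. The mitochondrial genome was compared with the nuclear genome by blastn 2.17.0, and promoters came from RefSeq.

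Members and gene lists were chosen with earlier results of these data known. Genes named were a fixed panel, the 10 higher and 10 lower genes of smallest p, the 6 higher and 6 lower of largest change among groups that did not overlap, and up to 3 of smallest p per list. Other genes in the text were chosen after their values were seen. Results for some genes are not reported here.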

Additional observations from a re-analysis of the deposited data

Results flagged for a closer look

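Slc2a1, the glucose transporter GLUT1, had opposite genotype differences under the sera. Under control serum every TASTPM library (1707, 1169 and 1697 normalized counts) was below every WT library (2994, 1965 and 2211), with a log2 fold change of -0.65. Under K/BxN serum every TASTPM library (2265, 1988, 2605 and 2102) was above every WT library (1630, 1958, 1343 and 1789). The interaction of genotype and serum had an unadjusted p of 0.0031 in limma and did not pass the adjusted threshold.

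mt-Co3 had 1 sample far from the others in the TASTPM K/BxN ST group, where library 1 held 38418 normalized counts against 2272, 4929 and 6850. Its gap to the nearest value was 0.873 of the whole range, above the critical value of 0.829 for 4 samples. The gap was taken on normalized counts without a log. A chance rate of about 1 in 20 groups presumes normally distributed values, which was not tested for these counts.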

How the results depend on the processing

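Of the alternatives run, most left 0 genes called. One gene (1, Fkbp5) was called when a mean of 50 reads was required, 26 genes in limma without the trend, 34 in DESeq2 with 6 libraries and 28 in DESeq2 with 14. Leaving out each library gave 0 to 2 calls, with 2 (Fkbp5 and mt-Co3) without WT library 1. For these counts the cause was not tested. Of the log2 fold changes of named genes under alternatives, 1219 kept their direction and side of the threshold, 40 passed it and 20 changed sign. The sign changes were in the genes named next. With the sex-linked covariate App was 0.038, Mertk 0.20, H2-Ab1 -1.24, Tlr4 0.088, Lgals3 0.66 and Xist -0.43. Tmem119 was 0.018 with upper-quartile scaling and 0.0020 in edgeR. Leaving out 1 library gave -0.22 to 0.042 for App, -0.094 to 0.049 for Tmem119, -0.0069 to 0.24 for Cd68, -0.36 to 0.020 for Trem2, -0.20 to 0.17 for Mertk, -0.55 to 0.84 for H2-Ab1 and -0.98 to 0.080 for Lgals3. Medians with the sex-linked covariate were 0.11 for amyloid precursor processing, 0.059 for TNF, IL-1 and NF-kB, 0.20 for the TGF-beta pathway and 1.91 for the glucocorticoid response. Without the filter they were 0.91 for the cell cycle and 2.22 for border-associated macrophage markers. Leaving out 1 library moved the medians of homeostatic genes from -0.24 to -0.077, of amyloid precursor processing from -0.18 to -0.044, of the TLR4 pathway from -0.097 to 0.047, of galectins from -0.37 to 0.053, of MHC class I from -0.20 to -0.0092, of the TCA cycle from -0.14 to 0.076, of the cell cycle from -0.30 to 0.48, of TNF, IL-1 and NF-kB from -0.30 to -0.023, of the TGF-beta pathway from -0.32 to -0.020, of border-associated macrophage markers from 2.59 to 4.40, of the glucocorticoid response from 0.91 to 1.59, of the circadian clock from 0.089 to 0.33 and of oligodendrocyte markers from 0.077 to 0.73. With 3 libraries per group, 1 library can decide a call, and genes with few reads have wide errors. No paired analysis was possible because the groups share no replicate numbers.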
